A study of Homo sapiens with 15 samples.

Results

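The difference between SCC13-TLR4 and SCC13-pUNO cells was taken over untreated and LPS-treated cells together, from 14 of the 15 arrays of the series. SCC13 is a cell line from a human squamous cell carcinoma of the skin. SCC13-pUNO cells carried the empty plasmid pUNO and SCC13-TLR4 cells the plasmid pUNO-TLR4GFP, both stably transfected and kept under blasticidine. The 7 SCC13-TLR4 arrays (3 untreated, 4 with 10 μg/ml LPS for 24 h) were set against 7 SCC13-pUNO arrays (3 untreated, 4 with LPS). By rule 1 array was not used, the one whose label reads untreated SCC13-pUNO replicate 2, because its TLR4 level was 3.04, as on the arrays labelled SCC13-TLR4. Levels are log2 signals minus the array's own 75th percentile, so a level of 0 lies at that percentile and a difference of 1 is a 2-fold change. Each line was taken as 1 transfected population, though neither the labels nor the methods of the study state this. The methods do state that SCC13-TLR4 cells were also sorted for a high GFP signal. The line therefore cannot be told apart from the transfection, the selection and the sort. The replicates were cultures of these cells, and p-values measure the spread between them. Each group also had its own column of positions on both slides, so line and position on the slide cannot be told apart either.

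TLR4 is the receptor through which cells sense lipopolysaccharide of gram-negative bacteria, together with its partners MD-2 and CD14. Its adaptors lead to NF-kB, to the MAP kinases ERK and JNK with the AP-1 factors, and to interferon genes. Keratinocytes express the receptor and answer its ligands with chemokines that call in neutrophils. Basal keratinocytes are marked by the keratin pair KRT5 and KRT14 and by hemidesmosome genes, which are lost as the cells differentiate.

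The transfected gene chose the array that was left out, so its levels on the 14 arrays used are a description and no check of the labels. TLR4 levels were -6.40, -6.09 and -3.80 (lowest, median and highest) on the 7 SCC13-pUNO arrays and 2.84, 3.07 and 3.19 on the 7 SCC13-TLR4 arrays. The probe read here stood well above background on 1 of 7 arrays of the former line and on 7 of 7 of the latter. Its difference of 8.67 (SE 0.37) is a description, since the TLR4 level chose the array that was left out. The other TLR4 probe, at a mean level of -6.17, was well above background on 0 of 14 arrays and was not tested. Of the keratinocyte markers, 10 of 12 were well above background on all 14 arrays and each of the 12 was so on at least 1 array. Of the fibroblast markers, 7 of 9 were well above background on no array. Another fibroblast marker, COL5A2, was so on all 14. Of the leukocyte markers 4 of 10 (the defining marker PTPRC, CD68, CSF1R and TYROBP) were well above background on all 14 arrays and 1 on none. Of the endothelial markers 1 of 6 (CDH5) was so on all 14 and 2 on none. Of the melanocyte markers 2 of 6 (PMEL and MITF) were so on all 14 and 1 on none. The levels of PTPRC and CDH5 were low. The summed linear level of the leukocyte list was 1.30 to 1.82 in SCC13-pUNO and 1.33 to 1.91 in SCC13-TLR4, and that of the endothelial list 0.263 to 0.597 and 0.303 to 0.528. For melanocyte markers it was 1.05 to 1.29 and 0.967 to 1.33, and for fibroblast markers 1.11 to 1.39 and 1.30 to 1.84. The summed keratinocyte level was 514 to 650 in SCC13-pUNO and 492 to 694 in SCC13-TLR4. The part of other cell types in the results was not tested.

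Over 22753 probes tested with limma in a model with line, LPS and slide, 52 passed a Benjamini-Hochberg adjusted p of 0.05. These were 0.229% of the probes. In SCC13-TLR4 cells 29 probes (0.127%) were higher and 23 (0.101%) were lower. Without TLR4 the counts were 51 in all and 28 higher. The called probes with a gene symbol were 44, for 39 genes, and 8 had no symbol, of which 7 were higher and 1 lower. The absolute difference was over 1 for 17 probes and over 2 for 6. The levels of the lines did not overlap for 34 of the 52 probes, and for 0.246% of all probes tested. Only probes with a value on all 14 arrays could enter these counts. The median difference over all probes was 0.01, with a median SE of 0.10, against a median absolute difference of 0.68 for the called ones. With all 15 arrays, the left-out one under its label, 25 probes were called, all of them among the 52. Without untreated SCC13-pUNO replicate 4 the count was 30, all among the 52.

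The promoters of CXCL1, TFPI2 and GNG11 are shown because CXCL1 was the called chemokine and, of the called genes with a promoter in the table used, the only one with a match to the NF-kB motif below, and because TFPI2 and GNG11 are neighbours that were both lower. Each sequence holds the 250 bases before the start of the gene, 5′ to 3′ on the strand of the gene, in RefSeq's GRCh38.p14. They lie at chr4:73869143-73869392 (plus strand), chr7:93890754-93891003 (minus strand) and chr7:93921485-93921734 (plus strand). Capitals mark matches to GGGANNTTCC, the letters searched for NF-kB, on either strand.
CXCL1: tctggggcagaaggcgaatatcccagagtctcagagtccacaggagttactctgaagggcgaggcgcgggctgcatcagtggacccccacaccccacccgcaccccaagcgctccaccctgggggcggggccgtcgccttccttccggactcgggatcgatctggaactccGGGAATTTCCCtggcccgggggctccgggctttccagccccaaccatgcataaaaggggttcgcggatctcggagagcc
TFPI2: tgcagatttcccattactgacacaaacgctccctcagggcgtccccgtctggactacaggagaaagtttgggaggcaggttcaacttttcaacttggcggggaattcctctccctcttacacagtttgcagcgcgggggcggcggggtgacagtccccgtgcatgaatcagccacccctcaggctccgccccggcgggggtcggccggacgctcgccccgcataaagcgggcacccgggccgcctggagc
GNG11: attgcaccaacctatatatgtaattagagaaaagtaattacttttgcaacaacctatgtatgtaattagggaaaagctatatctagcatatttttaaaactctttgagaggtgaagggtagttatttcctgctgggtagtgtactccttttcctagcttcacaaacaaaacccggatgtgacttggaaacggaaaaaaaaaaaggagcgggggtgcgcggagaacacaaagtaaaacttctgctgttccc
The match in CXCL1 begins 79 bases before the start and holds the motif on both strands, GGGAATTTCC and GGAATTTCCC, which overlap. Among 35116 promoters of this length, 1.40% held GGGANNTTCC, and 1 of the 33 promoters of the 25 called genes in the table did. The AP-1 letters TGACTCA stood in 4.20% of all promoters and in 1 of the 33, that of CALHM3. The CRE letters TGACGTCA stood in 1.65% of all promoters and in 1 of the 33, a promoter of CDIP1. A match is a description of the letters.

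Among the tested genes of inflammation that lie downstream of TLR4, the one called was CXCL1, which draws neutrophils. Its brighter probe lay at -1.45, -1.21 and -0.67 (lowest, median, highest) in SCC13-pUNO cells and at -0.53, -0.11 and 0.16 in SCC13-TLR4 cells, and the levels did not overlap. The difference was 0.95 (SE 0.11, limma adjusted p = 0.00239), and that of the other CXCL1 probe 0.93 (SE 0.11, adjusted p = 0.00184). Both stayed called without any 1 of the 14 arrays, but the values with all 15 arrays were 0.85 (adjusted p = 0.147) and 0.78 (adjusted p = 0.307). IL6, the cytokine gene, was at -1.44, -0.69 and -0.26 in SCC13-pUNO cells and at -2.25, -0.85 and -0.48 in SCC13-TLR4 cells. The levels overlapped, and the difference of -0.40 (SE 0.31, adjusted p = 0.606) did not pass. The chemokine gene CXCL12 gave -0.45 (SE 0.61, adjusted p = 0.789) on the brighter of its tested probes and 0.89 (SE 0.44, adjusted p = 0.427) on the other. No IL6R or TFPI probe was tested, because the best of them was well above background on 0 and 1 of 14 arrays. Of 32 listed NF-kB targets and inflammatory mediators only 11 were tested, so most of this list was not read. Of these 11, CXCL1 was higher, none was lower, and the median difference was -0.09.

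ATF3, a stress-induced transcription factor that pairs with AP-1 proteins, was read by 3 tested probes that differed from each other. On the called one the levels were -2.46, -1.83 and -1.38 in SCC13-pUNO cells and -1.22, -0.27 and 0.01 in SCC13-TLR4 cells. All 7 SCC13-TLR4 arrays were above all 7 SCC13-pUNO arrays, and the difference was 1.38 (SE 0.22, adjusted p = 0.0252). It was called in 5 of 14 fits that each left out 1 array, and it was 0.79 on slide 1 and 1.91 on slide 2. The brightest ATF3 probe gave 0.26 (SE 0.23, adjusted p = 0.658), and the third 0.40 (SE 0.16, adjusted p = 0.343). Of 27 AP-1, ERK and JNK early response genes, by their brightest probe, limma called none and 6 had an unadjusted p under 0.05, against 12.7% of all probes, with a median difference of 0.09. Of 21 tested TLR4 signalling components, none besides TLR4 was called and the median was 0.03. TLR4 is not taken as a test result, since its level chose the left-out array.

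Apart from TLR4, the 5 called probes with a difference over 2 lay outside the lists of TLR4 signalling and inflammation. HBB, the beta chain of adult hemoglobin, lay at -6.01, -5.71 and -3.95 in SCC13-pUNO cells and at 3.82, 4.31 and 4.56 in SCC13-TLR4 cells. Its probe exceeded background clearly on 0 of 7 and 7 of 7 arrays, so HBB was at least 419-fold higher in the TLR4 line (adjusted p = 5.63e-09). This bound sets the mean of the bright line against the lowest signal that was well above background on each array of the dim line. Where the probe's own level on such an array was higher, that level was used. A probe of this kind entered the fit through the bright line alone, so its call is no separate support for the bound. Of the other 10 globin and erythroid genes tested limma called none, and 4 had an unadjusted p under 0.05, against 12.7% of all probes. The summed level of the erythroid markers was 0.989 to 1.33 in SCC13-pUNO and 15.1 to 24.9 in SCC13-TLR4, with HBA2 and KLF1 among those well above background on all arrays and AHSP on none. Without HBB the sum of the other 6 was 0.969 to 1.31 and 0.949 to 1.37.

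RANBP17, a protein of the importin-beta family of nuclear transport receptors, showed the reverse. Its levels were -2.36, -1.75 and -1.33 in SCC13-pUNO cells and -6.66, -6.43 and -6.13 in SCC13-TLR4 cells. It was well above background on 7 of 7 and 0 of 7 arrays and thus at least 7.38-fold lower in SCC13-TLR4 cells (adjusted p = 5.63e-09). ST8SIA5, which adds sialic acid to gangliosides, was well above background in the TLR4 line alone (0 of 7 and 7 of 7 arrays) and at least 3.24-fold higher (adjusted p = 0.000886). FHIT, a hydrolase encoded at a common fragile site, lay at -3.50, -2.62 and -2.21 against -1.01, -0.65 and -0.12, a difference of 2.14 (SE 0.14, adjusted p = 1.06e-05). It was the only called gene of 10 tested fragile site genes, whose median was 0.02. These genes were separated on every array of the 2 lines. A probe without a gene symbol, A_33_P3274009, was lower by a difference of -3.09 (SE 0.14, adjusted p = 1.72e-07), and another, A_32_P76627, was higher by 1.10 (SE 0.07, adjusted p = 7.22e-06).

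**Figure D1:**
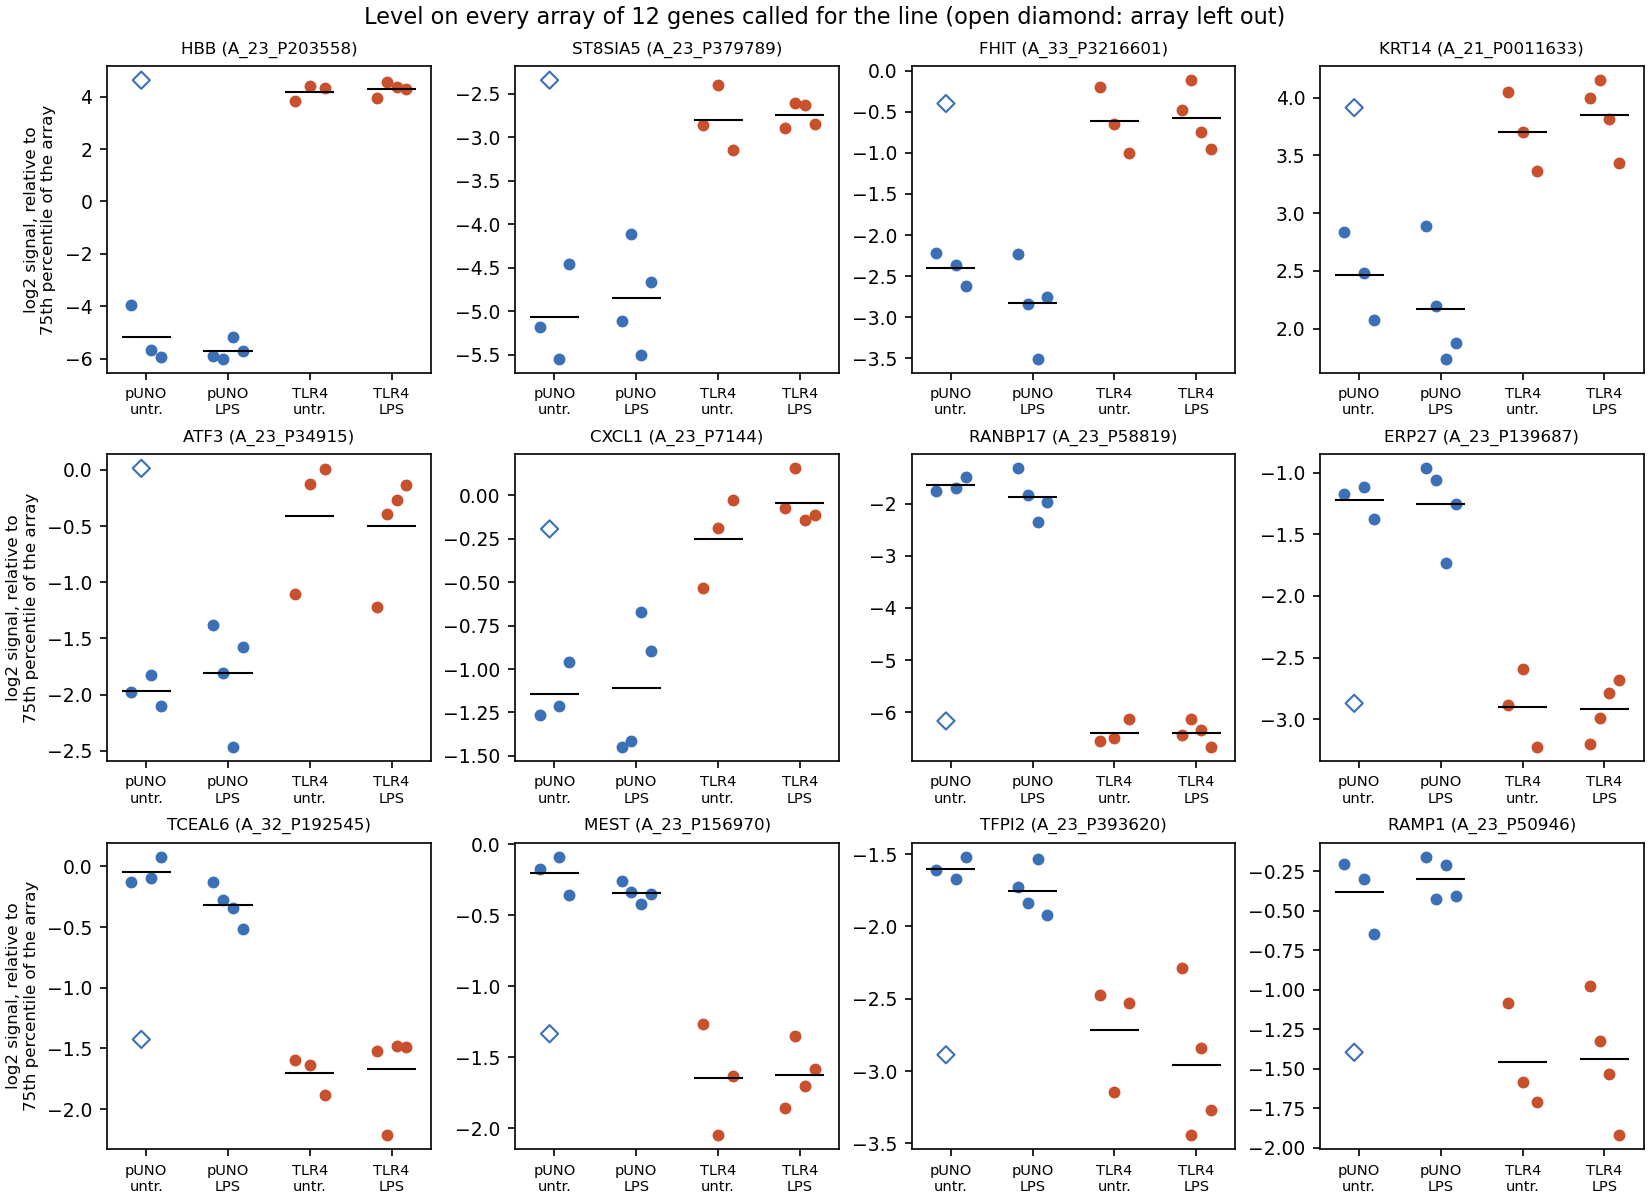
Level of 12 called genes on each array (y axis: log2 signal minus the array's 75th percentile; x axis: line and treatment; points: arrays; bars: group means of the arrays used; open diamond: the array that was not used). For each gene the called probe with the largest difference is drawn, and in all 12 panels the 7 SCC13-TLR4 arrays lie on 1 side of the 7 SCC13-pUNO arrays, with the diamond on the SCC13-TLR4 side.

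Of the keratins tested in the lists, KRT14 and KRT17 were higher in SCC13-TLR4 cells. KRT14, the type I keratin of basal cells, was called by all 3 of its probes. On the probe with the largest difference it lay at 1.74, 2.19 and 2.89 in SCC13-pUNO cells and at 3.37, 3.82 and 4.15 in SCC13-TLR4 cells. The levels did not overlap, and the differences of the 3 probes were 1.58 (SE 0.12, adjusted p = 5.16e-05), 1.51 (SE 0.20, adjusted p = 0.00634) and 0.69 (SE 0.06, adjusted p = 0.000261). KRT17, a keratin of stressed and regenerating epidermis, differed by 0.44 (SE 0.08, adjusted p = 0.0404) with overlapping levels, and was called in 2 of 14 fits with 1 array left out. Probes of KRT14, KRT16 and KRT17 can share targets, since these genes and their pseudogenes are near copies, and the part of this was not tested. KRT5, the partner of KRT14, differed by 0.23 (SE 0.07, adjusted p = 0.275), KRT15 by -0.18 (SE 0.07, adjusted p = 0.371) and KRT16 by 0.04 (SE 0.07, adjusted p = 0.845), none of which passed. Of 23 tested basal keratinocyte and hemidesmosome genes 2 were called higher and none lower, with a median of 0.04. An unadjusted limma p under 0.05 was found for 9 of the 23, with 7 higher and 2 lower, against 12.7% of all probes. Of 26 tested differentiation genes, from 45 symbols listed, limma called none and 1 had an unadjusted p under 0.05, with a median of -0.03.

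TFPI2 and GNG11, which are neighbours, were both lower in SCC13-TLR4 cells. TFPI2, a Kunitz-type inhibitor of serine proteases such as plasmin, lay at -1.92, -1.67 and -1.52 in SCC13-pUNO cells and at -3.44, -2.84 and -2.29 in SCC13-TLR4 cells. The levels did not overlap, and the difference was -1.16 (SE 0.17, adjusted p = 0.0127). It stayed called in 13 of 14 fits with 1 array left out, but was -1.13 (adjusted p = 0.0593) without untreated SCC13-pUNO replicate 4 and -1.03 (adjusted p = 0.21) with all 15 arrays. GNG11, a gamma subunit of heterotrimeric G proteins that cleared background on 3 of 7 arrays of the TLR4 line, has no tested gene between itself and TFPI2 in the RefSeq order. Its levels were -3.99, -3.63 and -3.25 in SCC13-pUNO cells and -4.79, -4.37 and -4.17 in SCC13-TLR4 cells, a difference of -0.78 (SE 0.11, adjusted p = 0.0114). Of 17 genes of tissue factor and the plasminogen activator system, TFPI2 was lower, none was higher, and the median was -0.05.

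Other called genes also lay close to each other on a chromosome. IRX5, a homeobox factor, differed by 0.75 (SE 0.09, adjusted p = 0.00193), from -2.17, -2.06 and -1.62 in SCC13-pUNO cells to -1.54, -1.30 and -1.02. CRNDE, a long noncoding RNA next to it, differed by 0.50 (SE 0.08, adjusted p = 0.0452) on 1 probe, and by 0.36 to 0.42 on the other 3, which did not pass. It was called in 1 of 14 fits with 1 array left out. ERP27, an endoplasmic reticulum protein related to protein disulfide isomerase, differed by -1.66 (SE 0.14, adjusted p = 0.000107), and PLBD1, a phospholipase B-like protein, by -0.66 (SE 0.09, adjusted p = 0.0106). Both lie on chromosome 12 with 4 tested genes between them, whose differences were -0.09 to 0.01, none called. KRT14 and KRT17 lie on chromosome 17 with KRT16 as the only tested gene between them. On chromosome 11 the growth factor IGF2 differed by -0.36 (SE 0.06, adjusted p = 0.0486) and ASCL2, a bHLH factor, by 0.48 (SE 0.06, adjusted p = 0.00557), with 2 tested genes between them that were not called. A second IGF2 probe gave 0.08 (SE 0.20, adjusted p = 0.899). The 39 called genes were spread over 17 chromosomes with at most 5 on any.

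Among the remaining genes with large differences, TCEAL6, of the TCEA-like family on chromosome X, was called by both of its probes with -1.49 (SE 0.13, adjusted p = 0.000143) and -1.39 (SE 0.13, adjusted p = 0.000404). MEST, an imprinted gene expressed from the paternal copy, lay at -0.42, -0.33 and -0.09 in SCC13-pUNO cells and at -2.05, -1.63 and -1.27 in SCC13-TLR4 cells, a difference of -1.32 (SE 0.10, adjusted p = 5.16e-05). RAMP1, a co-receptor for calcitonin gene-related peptide, differed by -1.06 (SE 0.11, adjusted p = 0.000664) on 1 probe. Its other probe gave -1.56 (SE 0.36, adjusted p = 0.15) and did not pass. All 7 SCC13-TLR4 arrays lay below all 7 SCC13-pUNO arrays on the called probes of these 3 genes. SNORD45A, a C/D box small nucleolar RNA, was higher by 1.17 (SE 0.12, adjusted p = 0.000886).

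Most called differences were small. Of the 52 probes 35 had an absolute difference under 1, with 20 higher and 15 lower, and the smallest was 0.32. FARP2, a guanine nucleotide exchange factor, was higher by 0.72 (SE 0.08, adjusted p = 0.00187) on 1 probe and gave 0.06 (SE 0.10, adjusted p = 0.822) on the other. NOCT, a circadian gene, was higher by 0.56 (SE 0.09, adjusted p = 0.019). CDH13, the T-cadherin anchored to the membrane by a lipid, was higher by 0.50 (SE 0.09, adjusted p = 0.0486) with overlapping levels, called in 3 of 14 fits with 1 array left out. It was 0.44 (adjusted p = 0.266) with all 15 arrays, and its other probe gave 0.42 (SE 0.14, adjusted p = 0.3). Of 28 tested migration and mesenchymal genes, from 40 listed, CDH13 alone was called, and the median was -0.04. The coactivator PPARGC1B (0.35), the efflux pump ABCC2 (0.34) and the sugar-phosphate exchanger SLC37A2 (0.37) were also higher, and were called in 2, 3 and 7 of the 14 fits. Second probes of PPARGC1B (0.12, adjusted p = 0.621) and SLC37A2 (0.19, adjusted p = 0.577) did not pass.

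Of the small differences 15 were in the lower direction. AJAP1, a protein of adherens junctions, was called by both probes with -0.72 (SE 0.08, adjusted p = 0.00187) and -0.52 (SE 0.08, adjusted p = 0.0165). CNN3, the acidic calponin that binds actin, lay at 0.17, 0.32 and 0.43 in SCC13-pUNO cells and at -0.40, -0.15 and -0.08 in SCC13-TLR4 cells, a difference of -0.52 (SE 0.07, adjusted p = 0.0078). The epithelial tyrosine kinase PTK6 differed by -0.41 (SE 0.05, adjusted p = 0.00318), and SP5, a transcription factor induced by Wnt, by -0.49 (SE 0.07, adjusted p = 0.00904). CDIP1, a proapoptotic p53 target, differed by -0.48 (SE 0.06, adjusted p = 0.00262) on 1 probe and by -0.11 (SE 0.18, adjusted p = 0.839) on the other. The channel subunit CALHM3 differed by -0.52 (SE 0.07, adjusted p = 0.0114). FANCF, of the Fanconi anemia core complex, differed by -0.84 (SE 0.13, adjusted p = 0.0149) on its dimmer probe, which cleared background on 3 of 7 arrays of the TLR4 line, and by -0.38 (SE 0.08, adjusted p = 0.076) on the brighter one. RASIP1 (-0.45), VAX1 (-0.34), TRIM59 (-0.33) and SAYSD1 (-0.32) were lower as well. RASIP1 and IGF2 were each called in 2 of 14 fits with 1 array left out.

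**Figure D2:**
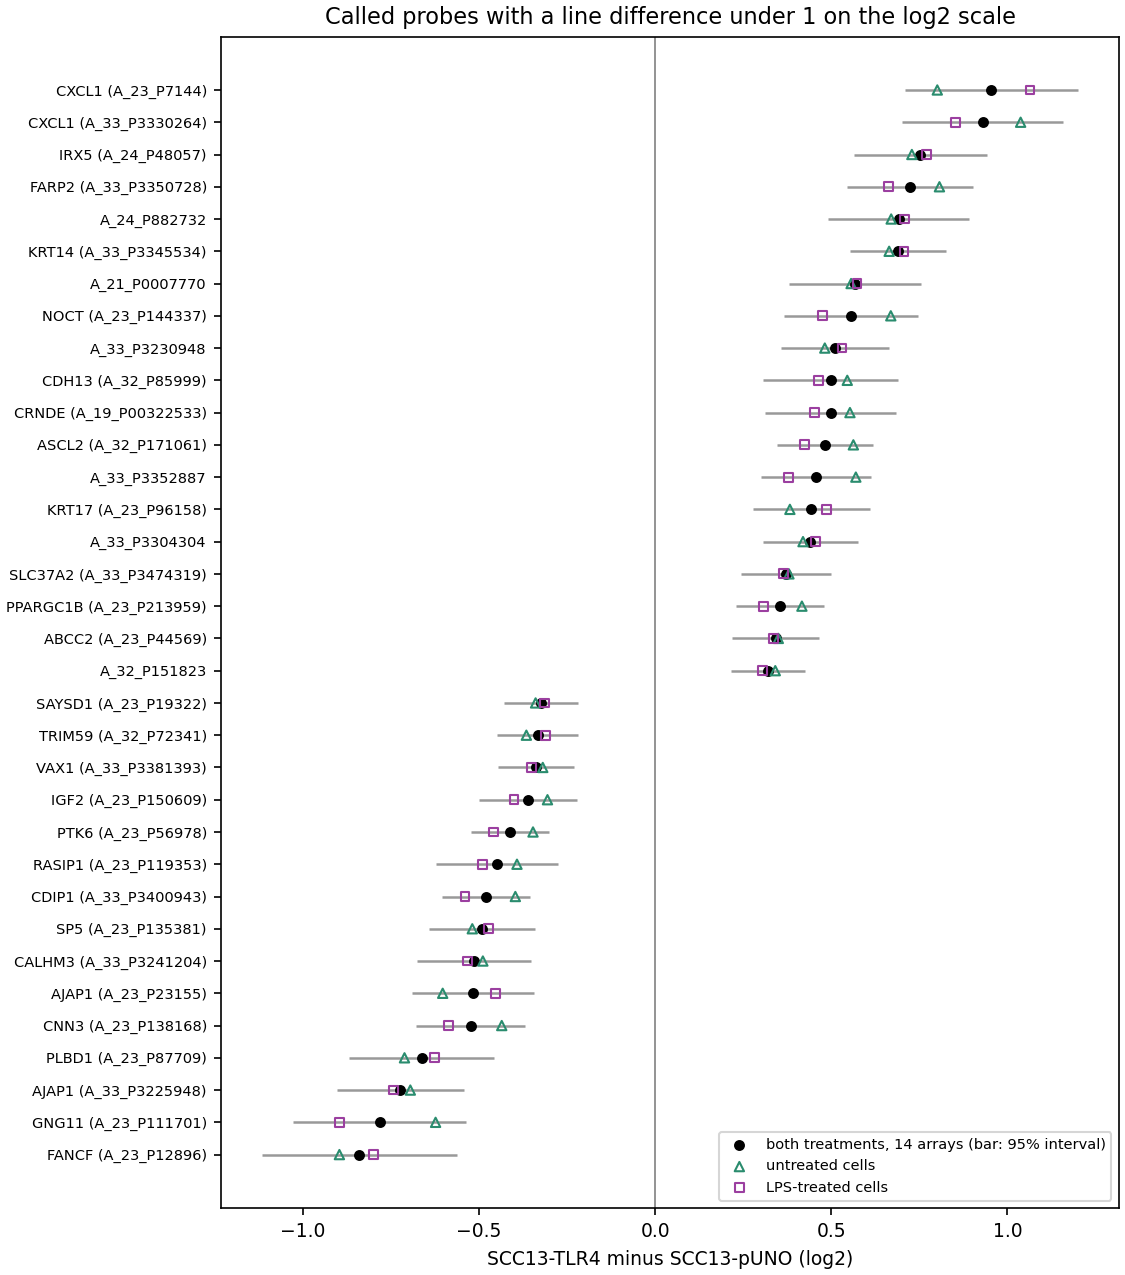
Called probes with an absolute difference under 1, 34 of the 35 drawn (x axis: SCC13-TLR4 minus SCC13-pUNO, log2; y axis: probes; black points with bars: difference over 14 arrays with its 95% interval; triangles: untreated cells; squares: LPS-treated cells). The 19 higher and 15 lower probes drawn have triangle and square on the same side of 0.

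The differences were shared by both treatments. The sign of all 52 called probes was the same without LPS (3 arrays of each line) and with LPS (4 of each), and also on both slides. They were chosen from the pooled data of both treatments, so this count is a description. FHIT differed by 1.96 untreated and 2.26 with LPS, KRT14 by 1.44 and 1.68, CXCL1 by 0.80 and 1.06, and TFPI2 by -1.09 and -1.20. The brightest ATF3 probe, which was not called, gave 0.74 untreated and -0.08 with LPS. IL6 gave -0.77 and -0.14. On the slides, CXCL1 differed by 1.16 on slide 1 and 0.74 on slide 2, TFPI2 by -0.98 and -1.33, and KRT14 by 1.48 and 1.68.

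**Figure D3:**
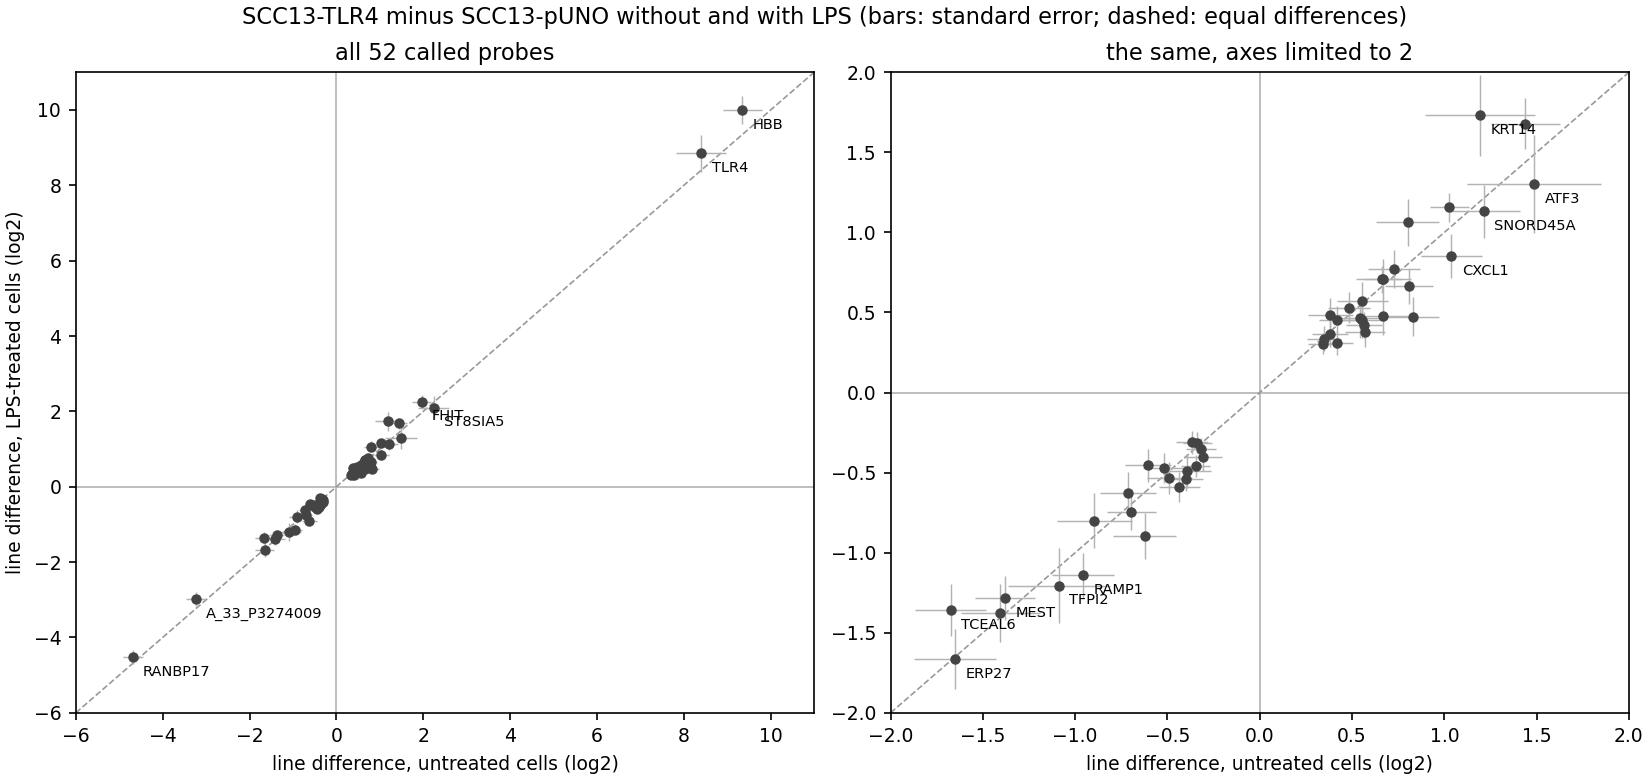
Line difference of the 52 called probes in untreated cells (x axis, log2) against LPS-treated cells (y axis, log2), with standard errors as bars and equal differences as the dashed line. The right panel limits both axes to 2, and each probe lies in the quadrant where both differences have the same sign.

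A test of the interaction of line and LPS gave no called probe with limma, 462 at an unadjusted p under 0.05 and a smallest adjusted p of 0.121. Among the 52 called probes none had an interaction p under 0.05, and the smallest was 0.0863. This does not show equal differences with and without LPS. Without untreated SCC13-TLR4 replicate 3 there were 4 called interactions, for SNORA70G, a small nucleolar RNA, and 3 probes without a symbol (A_33_P3360753, A_33_P3212919, A_33_P3417222), and without untreated SCC13-pUNO replicate 4 there was 1 (A_21_P0002380, without a symbol). None of these was called for the line. These probes were named after their values were seen. Over all 22753 probes the line difference had the same sign in both treatments for 66.2%, with Pearson's r of 0.27 and a Spearman coefficient of 0.37 across probes in the joint fit. The values share slides, and probes are not independent replicates. Fitted on their own, the 6 untreated arrays gave 1 called probe and the 8 LPS arrays 7, with 1 in both. Of the 1493 probes with an unadjusted p under 0.05 in the untreated fit, 70.7% had the same sign with LPS, against 63.9% of all probes.

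The other gene lists gave no called member with limma in either direction. At an unadjusted p under 0.05, where 2884 of all 22753 probes stood, they had 3 (proliferation), 3 (interferon), 5 (HLA), 4 (stress), 5 (hypoxia), 2 (cholesterol), 0 (IL-6 family), 4 (EGF receptor) and 4 (p53) members. Their medians were -0.02 for 32 proliferation genes, 0.09 for 25 type I interferon response genes, 0.05 for 18 HLA class I and antigen presentation genes and 0.02 for 24 integrated stress and unfolded protein response genes. For 23 hypoxia and glycolysis genes the median was 0.04, for 28 cholesterol and fatty acid synthesis genes 0.03, for 15 IL-6 family genes with receptors and STAT3 -0.04, for 14 EGF receptor family genes 0.08 and for 18 p53 targets 0.07. The interferon-induced GTPase MX1 gave 0.95 (SE 0.24, adjusted p = 0.182), the epidermal lipoxygenase ALOX12B 1.05 (SE 0.54, adjusted p = 0.442), and the cholesterol enzyme DHCR7 -2.05 (SE 1.59, adjusted p = 0.612), the last with -4.92 untreated and -0.01 with LPS. They did not pass and were named after their values were seen.

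**Figure D4:**
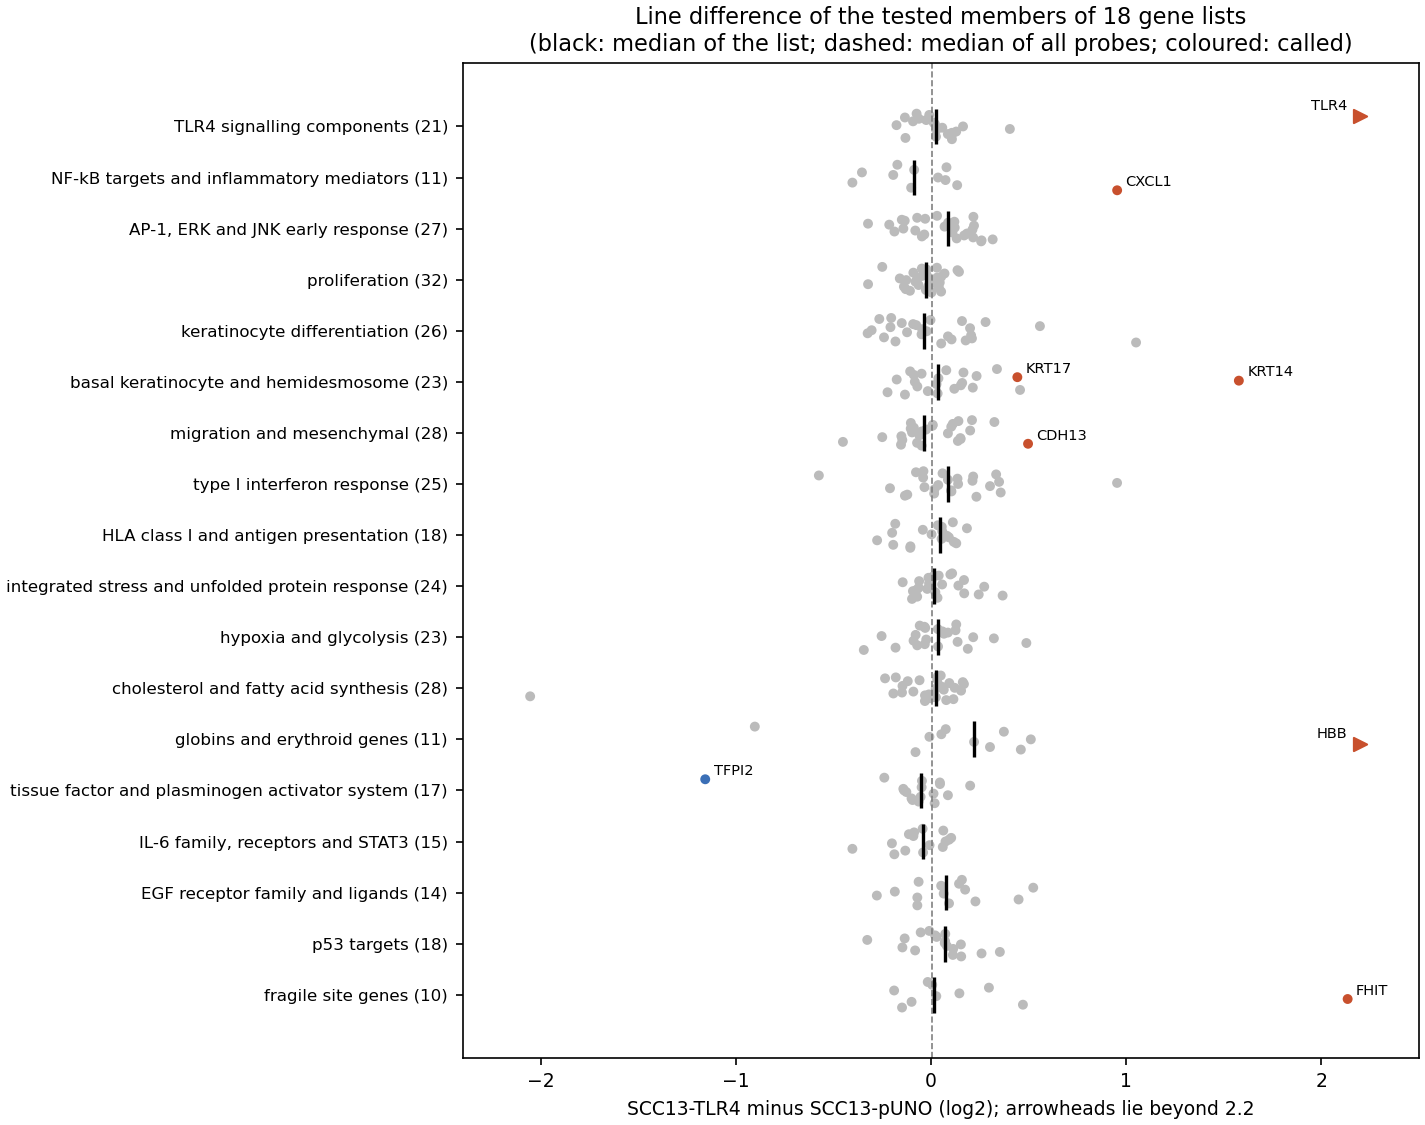
Line difference of the tested members of 18 gene lists (x axis: SCC13-TLR4 minus SCC13-pUNO, log2; y axis: list with its number of tested members; points: genes by their brightest probe; black bars: list medians; dashed line: median of all probes; red and blue: called higher and lower; arrowheads: beyond 2.2). 8 genes are coloured, 7 of them higher (TLR4, CXCL1, KRT14, KRT17, CDH13, HBB and FHIT) and TFPI2 lower. The level of TLR4 chose the left-out array, so its colour is a description.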

How the data were processed

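The authors deposited, per the file headers, the spot intensity of each 1-colour Agilent array after background subtraction by Feature Extraction 10.7.3.1, with no normalization between arrays. Here each deposited intensity was put on the log2 scale and the 75th percentile of its array was subtracted. Control and outlier-marked spots were left out, and repeat spots of 1 probe were averaged. The 75th percentile was 192 to 420 and 47.1% to 56.2% of spots passed the software's background mark, and precision is limited by the number of arrays. A probe entered the fit when it passed that mark, well above background, on all arrays of 1 or more of the 4 groups. limma 3.58.1 in R 4.3.3 fitted line, LPS and slide, with Benjamini-Hochberg adjustment over the probes tested. The slide term was called at 52.5% of probes, and the LPS term at none (825 at an unadjusted p under 0.05). Groups came from the sample labels. Gene symbols came from RefSeq through accessions. The members of the comparison and the gene lists were chosen with earlier results of these data known. Named genes were those the study names, by their brightest probe, up to 12 each way with the largest difference, the 5 each way with the smallest p under a difference of 1, and called list members. All other called genes and their other probes were added after their values were seen. On simulated arrays with 22449 probes, 50 of them changed at each size, the fit called 58% of line differences of 0.5, 88% of 1, 96% of 2 and 100% of 4, with 12 false calls. The simulation held more large differences than were called here, and its spread was drawn independently for each probe. Its share at 0.5 may therefore be too high for these arrays. Figures were drawn with matplotlib in Python. Gene order and promoters came from RefSeq tables of GRCh38.p14. A called probe of 1 gene is counted but not reported here.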

Additional observations from a re-analysis of the deposited data

Results flagged for a closer look

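Of 70 groups of 4 arrays checked, 6 held an array far from the other 3 of its group, where chance gives about 1 in 20 groups, or 3.5. The untreated groups, with 3 arrays used in each, were not checked. TLR4 was at -4.74 on LPS-treated SCC13-pUNO replicate 4, and between -6.26 and -6.09 on the others. CXCL12 was at -1.96 on LPS-treated SCC13-pUNO replicate 3, and between -3.65 and -3.38 on the others. CXCL12 was also at -6.36 on LPS-treated SCC13-TLR4 replicate 1, and between -2.48 and -2.24 on the others. IL6 was at -2.25 on LPS-treated SCC13-TLR4 replicate 3, and between -0.62 and -0.48 on the others. TCEAL6 was at -2.21 on LPS-treated SCC13-TLR4 replicate 2, and between -1.52 and -1.48 on the others. CALHM3 was at 0.75 on LPS-treated SCC13-pUNO replicate 1, and between 1.05 and 1.09 on the others.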

How the results depend on the processing

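The number of called probes, 52, was 25 with the median of the array as scale, 32 with no filter on dim probes, 26 without the slide term, 87 with a weight for each array, 25 with all 15 arrays, 1 and 7 in the untreated and LPS arrays alone, and 5 on each slide alone. The other scalings, filters and models gave 43 to 73, except the replicate block without slide. With a difference over 1 or 2 it was 17 or 6, and at an adjusted p of 0.10 or 0.01 it was 98 or 29. Leaving out 1 array gave 30 to 55. Scaling by the median moved the median of all probes to -0.11, and the split was then 10 higher and 15 lower. The replicate block gave 50 calls beside slide (25 higher, 25 lower, 35 among the 52) and 29 without slide. Same-numbered arrays correlated between -0.62 and 0.61 (13 of 18 pairs over 0.1). The pairs over 0.1 shared a slide and the negative pairs did not, so these values cannot tell a pairing from the slide. The replicate number was not taken as a pairing, and whether it was one is not known. The number of called members of the gene lists, 8, was 4 with all 15 arrays, 0 untreated and 3 with LPS. It was 2 on slide 1 and 3 on slide 2, and 2 of the latter 3 were among the 8. With 1 array left out it was 5 to 7. TLR4, whose level chose the array not used, is among these 8. The interaction had 0 to 4 calls with 1 array left out. Values turned sign only for probes that had not passed. The brightest ATF3 probe gave -0.085 in the LPS arrays alone and -0.14 on slide 2, and CXCL12 gave 0.32 on slide 2 and 0.22 as a mean over its probes. The causes were not tested. The row of the slide in place of slide, and separate fits by treatment, were chosen after seeing the data; the former gave 60 calls. The analysis by chromosome was not run, because no annotation of the array's build was used. Faint genes are limited by signal over background.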

Other observations

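The array not used, labelled untreated SCC13-pUNO replicate 2, was compared with the means of the 2 lines over the 51 called probes other than TLR4. It was nearer to the SCC13-TLR4 mean at 45 and nearer to the SCC13-pUNO mean at 6, and at all 16 of these probes with an absolute difference over 1 it was nearer to SCC13-TLR4. Set against the mean of the other arrays of its line, no SCC13-pUNO array was nearer to SCC13-TLR4 at more than 12 of the 51 probes, and no SCC13-TLR4 array at fewer than 40. The arrays used chose these probes and the left-out array did not, so these counts are no equal measure for it. HBB was at 4.63, RANBP17 at -6.16, KRT14 at 3.91 and TFPI2 at -2.89 on the left-out array. It sat in the column of positions that otherwise held untreated SCC13-TLR4 arrays. Its label was kept, and it was assigned to no other group.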
